A study of Mus musculus with 2 samples.

Results

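The binding of the thyroid hormone receptor TRα1 was examined at 10 genes of the Krüppel-like factor family, namely Klf2, Klf3, Klf4, Klf5, Klf6, Klf9, Klf10, Klf11, Klf13 and Klf15, out of 21938 protein-coding genes. The genes were chosen by name as a family that includes Klf9, a classic target of the hormone, with earlier results of these data known. A peak of the ChIP-seq list was taken as a TR binding site (TRBS) of a gene when its summit, the position with the most fragments, lay within 100 kb of the transcription start site (TSS). Sites within 30 kb, the distance at which the study links a TRBS to a gene, are described first. Of the 5107 TRBS in the list, 14 lay within 30 kb and 19 within 100 kb of these genes.

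The tissue was brown fat of male C57BL/6J mice aged 8 to 12 weeks. A GS-tagged TRα1 was expressed in brown adipocytes only, and the promoter that restricts it is not given in the sources used here. All animals were made hypothyroid with food containing propylthiouracil, an inhibitor of hormone synthesis, for 2 weeks and then received thyroid hormone for 24 h. The data came from 1 ChIP library and 1 input library of this single condition, which allows no comparison of conditions and gives no replicate error. Hypothyroid tissue without hormone and gene expression were not analysed here, so neither the effect of the hormone nor the identity of the tissue could be checked. The tissue was crosslinked with disuccinimidyl glutarate and then formaldehyde, and per the labels the antibody precipitates TRα. How many mice were pooled is not given in the sources used here.

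TRα1 binds DNA as a partner of RXR, and its best known response element is the DR4, in which the half-site AGGTCA occurs again on the same strand after 4 free bases. Krüppel-like factors are zinc finger proteins that bind GC-rich or CACCC sequences, and several members act in adipocytes. Klf9 is induced directly by the hormone in brain and in tadpoles, and it also responds to glucocorticoids. Klf10 and Klf11 are related repressors first known as genes induced by TGFβ. Klf13 is a close relative of Klf9, Klf15 promotes glucose uptake and amino acid breakdown, Klf4 and Klf5 act early in adipocyte differentiation, and Klf2 and Klf3 oppose it. Klf6 represses an inhibitor of that differentiation.

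TRBS were present within 30 kb of 6 of the 10 genes. The same criterion was met by 16.7% of all protein-coding genes. More than 1 TRBS was found at 4 of the 10, namely Klf3, Klf9, Klf10 and Klf13, compared with 4.55% of all protein-coding genes. Klf10 and Klf13 had 4 TRBS each, a number reached or exceeded by 0.693% of all protein-coding genes. Klf9 and Klf3 had 2 each, and Klf2 and Klf15 had 1 each. The other 4 genes, Klf4, Klf5, Klf6 and Klf11, had none, and this was also the case within 100 kb, a distance at which 38.3% of all protein-coding genes had a TRBS. These shares describe the list and carry no test, and since the members were chosen with results known, they say nothing of the family as a whole.

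**Figure D1:**
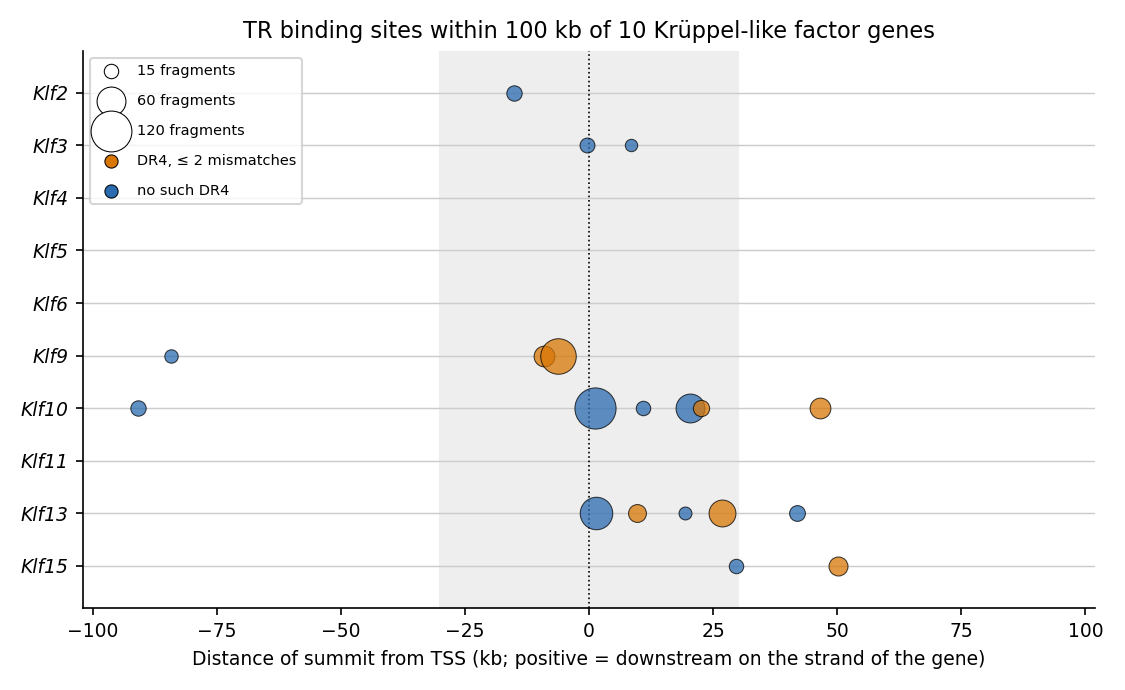
Position of each TRBS relative to the TSS of 10 Krüppel-like factor genes (x axis, kb, positive downstream on the strand of the gene). Circle area gives the ChIP fragments at the summit, orange marks a DR4 with at most 2 mismatches in the peak, and grey shading marks 30 kb on each side. Within 30 kb, Klf9 is bound upstream and Klf10 and Klf13 are bound downstream of their TSS, and 4 genes have no TRBS within 100 kb.

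The bases under the summits are shown for the strongest TRBS within 30 kb of Klf9, Klf13, Klf2, Klf3 and Klf15, since these are the strongest signal within that distance of each of these genes. Each run is 151 bases of GRCm38, with the summit in the middle, 5′ to 3′ on the plus strand. Capitals would mark DR4 half-sites with at most 2 mismatches, and none is present in these 5 windows.
Klf9, 6281 bp upstream, chr19:23134870-23135020: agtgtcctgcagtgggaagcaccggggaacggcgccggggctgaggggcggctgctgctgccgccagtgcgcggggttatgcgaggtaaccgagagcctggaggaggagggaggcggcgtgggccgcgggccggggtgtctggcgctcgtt
Klf13, 1389 bp downstream, chr7:63937451-63937601: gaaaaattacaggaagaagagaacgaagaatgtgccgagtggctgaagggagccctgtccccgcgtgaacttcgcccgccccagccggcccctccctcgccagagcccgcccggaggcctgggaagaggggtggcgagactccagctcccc
Klf2, 15112 bp upstream, chr8:72303846-72303996: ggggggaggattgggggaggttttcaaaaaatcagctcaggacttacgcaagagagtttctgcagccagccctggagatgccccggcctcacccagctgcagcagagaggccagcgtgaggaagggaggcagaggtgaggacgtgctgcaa
Klf3, 476 bp upstream, chr5:64802837-64802987: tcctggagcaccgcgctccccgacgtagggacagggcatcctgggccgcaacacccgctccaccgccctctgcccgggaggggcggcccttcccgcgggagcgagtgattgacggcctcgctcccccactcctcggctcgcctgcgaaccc
Klf15, 29514 bp downstream, chr6:90492015-90492165: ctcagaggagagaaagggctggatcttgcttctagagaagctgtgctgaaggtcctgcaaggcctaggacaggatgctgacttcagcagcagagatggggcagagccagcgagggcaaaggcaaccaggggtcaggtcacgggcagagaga

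A further 2 TRBS, of Klf10 and Klf13, are shown because a DR4 with 1 mismatch lies almost exactly at their summits. The layout is the same, and capitals mark the half-sites.
Klf10, 22519 bp downstream, chr15:38278112-38278262: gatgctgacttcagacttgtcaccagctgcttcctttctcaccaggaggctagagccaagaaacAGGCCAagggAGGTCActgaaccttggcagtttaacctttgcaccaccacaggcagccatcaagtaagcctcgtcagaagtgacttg
Klf13, 26799 bp downstream, chr7:63912041-63912191: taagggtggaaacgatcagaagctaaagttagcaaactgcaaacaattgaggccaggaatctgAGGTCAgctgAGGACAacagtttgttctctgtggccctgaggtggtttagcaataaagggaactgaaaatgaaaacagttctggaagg

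Klf9 (chromosome 19: 23141226 to 23168134, plus strand) was bound upstream of its TSS. The stronger TRBS (chr19:23133938-23136676) had its summit 6281 bp upstream, with 91 ChIP fragments covering the summit (95% Poisson interval 73.3 to 112). The fold, the ratio of ChIP fragments to the local input background with 1 added to both, was 36.5. Its score, 10 times the −log10 of the authors' q-value, was 1208. A total of 87 TRBS of the list had more fragments at the summit. Its width was 2739 bp against a median of 424 bp, and 1 TRBS of the list was wider. The weaker TRBS (chr19:23131476-23132560) lay 9011 bp upstream, with 31 fragments (21.1 to 44.0), a fold of 18.7 and a width of 1085 bp. Both were intergenic, and no other protein-coding gene had its TSS within 30 kb of either. The third TRBS of Klf9, 84230 bp upstream (chr19:23056797-23057097), was weak, with 13 fragments (6.92 to 22.2).

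Klf10 (chromosome 15: 38291463 to 38300706, minus strand) was bound downstream of its TSS at all 4 TRBS within 30 kb. The TRBS at 1196 bp (chr15:38299194-38299735), in an intron of the gene, had 122 fragments (101 to 146) and a fold of 47.4, the highest values of the family. Only 46 TRBS of the list had more fragments. A TRBS at 20229 bp (chr15:38280173-38280879), beyond the 3′ end of the gene, had 60 fragments (45.8 to 77.2) and a fold of 39.7. Klf10 thus carried a pair of strong TRBS, one inside and one beyond the gene. The second was followed after 2290 bp by a weaker TRBS at 22519 bp (chr15:38278053-38278363), with 19 fragments (11.4 to 29.7). The last of the 4, at 10775 bp (chr15:38289806-38290266), also beyond the 3′ end, had 15 fragments (8.40 to 24.7). No other protein-coding TSS lay within 30 kb of any of these 4 TRBS. Between 30 and 100 kb, a TRBS with 31 fragments was found 46542 bp downstream (chr15:38253924-38254428), nearer to Odf1, a sperm tail gene, and one with 17 fragments 90902 bp upstream.

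Klf13 (chromosome 7: 63886351 to 63938915, minus strand) was bound within its own introns at 4 places. As at Klf10, the strongest TRBS lay just downstream of the TSS, at 1389 bp (chr7:63937128-63937879), with 76 fragments (59.9 to 95.1) and a fold of 46.5. The TRBS at 26799 bp (chr7:63911679-63912519) had 52 fragments (38.8 to 68.2) and a fold of 27.7. The places between them were bound less. The TRBS at 9641 bp (chr7:63929063-63929421) had 23 fragments (14.6 to 34.5), and the TRBS at 19312 bp (chr7:63919470-63919775) had 12 (6.20 to 20.96). The TSS of the predicted gene E030018B13Rik, inside Klf13, was nearer than that of Klf13 for the TRBS at 19312 bp and 26799 bp, at 2746 bp and 4741 bp. The next TRBS beyond the 30 kb limit, a further intronic TRBS at 41858 bp, had 18 fragments (10.7 to 28.4).

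Within 30 kb, the remaining bound members had TRBS close to or below the median of the list, which was 17 fragments. By fold, where the list median was 9.83, Klf15 had 9.95 and Klf2 had 8.12. The TRBS of Klf3 were lower, with 5.43 at the promoter and 4.76 in the intron. Only 10.6% and 5.42% of all TRBS had a lower fold than these. Klf3 (chromosome 5: 64803388 to 64832901, plus strand) had a promoter TRBS (chr5:64802672-64803368) with its summit 476 bp upstream of the TSS. It had 16 fragments (9.15 to 26.0), and an intronic TRBS 8404 bp downstream had 11 (5.49 to 19.7). The latter was the only 1 of the 14 with a score under 60, the threshold in the study's methods. The TRBS of Klf2 (chromosome 8: 72319033 to 72321656, plus strand), 15112 bp upstream (chr8:72303804-72304107), had 17 fragments (9.90 to 27.2) and lay 1339 bp from the TSS of the predicted gene Gm10282. The TRBS of Klf15 (chromosome 6: 90462576 to 90475238, plus strand) at chr6:90491852-90492272 had 15 fragments (8.40 to 24.7). It was in an intron of Aldh1l1, which encodes an enzyme of folate metabolism, 5663 bp from the TSS of that gene. At 29514 bp it lay just inside the limit of 30 kb, and measured from the RefSeq start of Klf15 it was 31047 bp away. A second TRBS in Aldh1l1, 50054 bp from Klf15, was stronger, with 26 fragments (17.0 to 38.1).

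**Figure D2:**
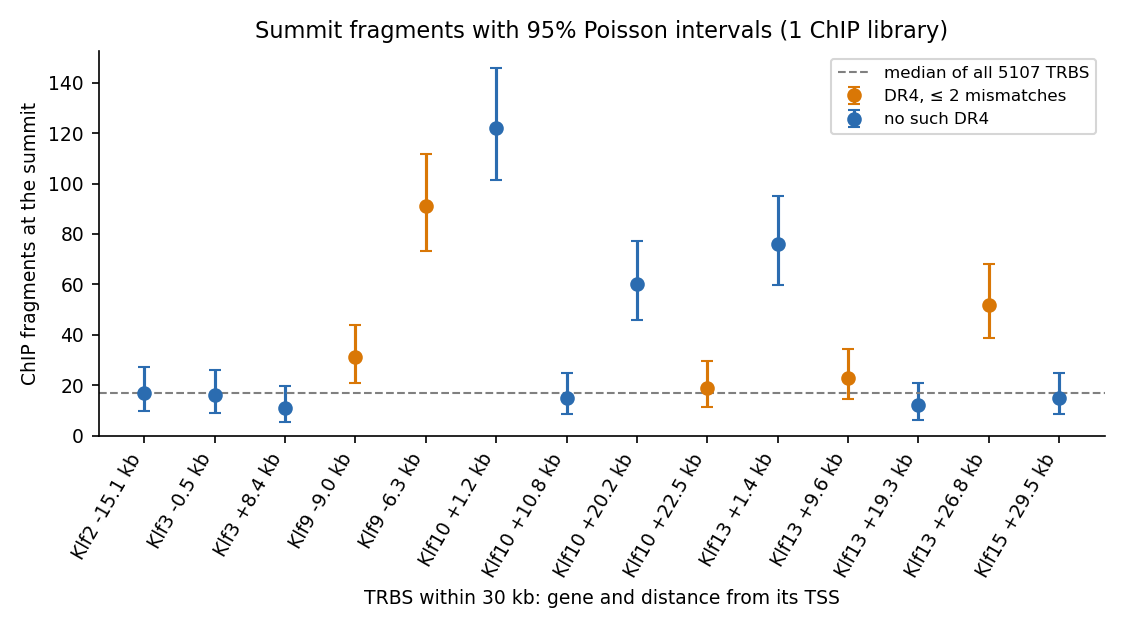
ChIP fragments at the summit (y axis) of the 14 TRBS within 30 kb of a Krüppel-like factor gene, each named by gene and distance from the TSS (x axis). Bars are 95% Poisson intervals, which cover counting error only, and the dashed line is the list median of 17 fragments. The 6 TRBS from 31 to 122 fragments all belong to Klf9, Klf10 and Klf13.

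In total, 8 of the 14 TRBS were above the list median of 17 fragments and 6 were above its upper quartile of 27. Introns held 7 of the 14, intergenic sequence held 6 and a promoter held 1. Of the 2913 TRBS of the list within 30 kb of any protein-coding gene, 49.3% were in introns, 29.5% were intergenic and 12.7% were in promoters. A total of 10 of the 14 lay downstream and 4 upstream of the TSS, beside 53.0% downstream over the 5410 pairs of a gene and a TRBS within 30 kb. These shares were not tested against the counts. For 10 of the 14, the member was the nearest protein-coding gene. The input background at the summits ranged from 0.512 to 2.13 fragments on the scale of the ChIP library, against a median of 0.672 for the list, and how far it moves the folds was not tested.

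The classic target was then compared with the other members. By the strongest TRBS within 30 kb, Klf9 stood second to Klf10 and before Klf13 when fragments were counted. By the largest fold over the input it ranked 3, with 36.5 against 46.5 at Klf13, where the input background was lower, at 0.655 against 1.52 fragments. The ratio of summit fragments of Klf9 to Klf10 was 0.746 (exact binomial 95% interval 0.562 to 0.987), although the Poisson intervals of both counts overlapped. The ratio of Klf9 to Klf13 was 1.197 (0.873 to 1.65), so these neighbours did not differ beyond counting error. Klf9 exceeded Klf2 by a ratio of 5.35 (3.17 to 9.59), Klf3 by 5.69 (3.32 to 10.4) and Klf15 by 6.07 (3.49 to 11.3). These 5 ratios compare positions within 1 library, cover counting error only and were not adjusted. Within 30 kb, the strongest TRBS of Klf2, Klf3 and Klf15 had overlapping intervals. The stronger TRBS of Klf15, at 50054 bp, did not enter these ratios. With 26 fragments (17.0 to 38.1) it also lay below the interval of Klf9 (73.3 to 112).

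When the fragments of all TRBS within 30 kb were added, Klf10 reached 216, Klf13 163 and Klf9 122. Klf3 had 27, Klf2 17 and Klf15 15. The sum of Klf13 includes 52 and 12 fragments of the TRBS at 26799 bp and 19312 bp, which are nearer to the TSS of E030018B13Rik. Without these, the sum of Klf13 would be lower than that of Klf9. Among the 3659 protein-coding genes with a TRBS within 30 kb, 25 genes had a higher sum than Klf10, 50 than Klf13 and 113 than Klf9. In contrast, 1387 genes had a higher sum than Klf3 and 2348 than Klf15. The sums of Klf9, Klf10 and Klf13 were thus all above those of Klf2, Klf3 and Klf15. With a limit of 10 kb, the sums of Klf9 and Klf10 were equal at 122.

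**Figure D3:**
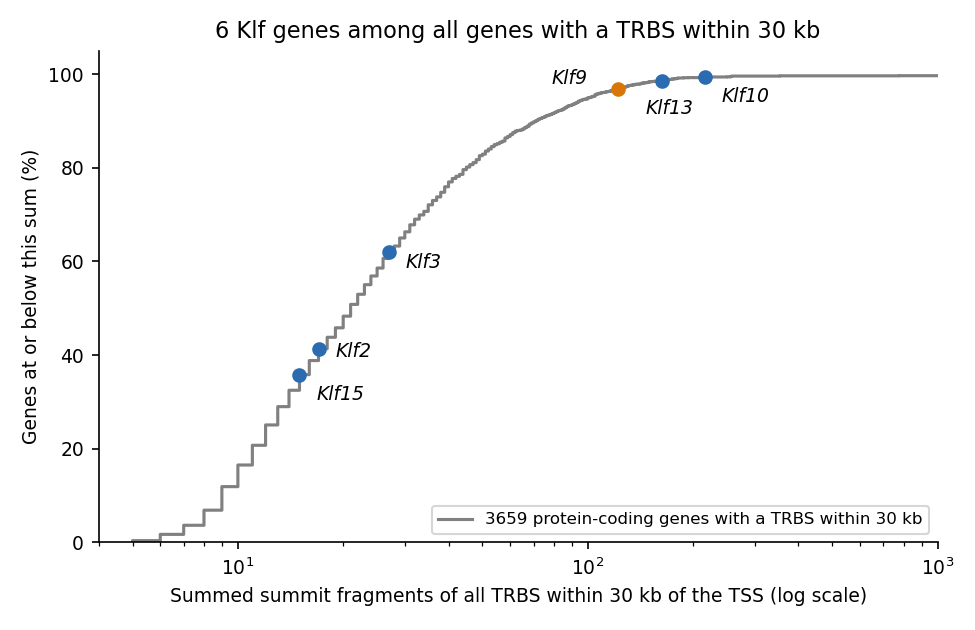
Summed summit fragments of all TRBS within 30 kb (x axis, log scale, shown up to 1000) against the share of the 3659 protein-coding genes with such a TRBS at or below this sum (y axis, %). Klf9 (orange), Klf13 and Klf10 sit near the top of the curve at 122, 163 and 216, while Klf15, Klf2 and Klf3 lie in its middle part at 15, 17 and 27.

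The DR4 was searched as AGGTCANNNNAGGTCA on both strands, where N is any base, and up to 2 of the 12 fixed bases could differ. It was present in 5 of the 14 TRBS, close to the 32.0% of TRBS in the whole list. Within 100 bp of the summit it was present in 3 of the 14, against 27.5% of the list. The elements are shown because the DR4 is the best known response element of the receptor. Whether the receptor contacts them was not tested. Half-sites are in capitals, on the strand that carries the direct repeat. The last 2 elements belong to TRBS between 30 and 100 kb.
Klf9, 9011 bp upstream, chr19:23131692-23131707 (minus strand): AGGTCAcaccAGGAAA
Klf9, 6281 bp upstream, chr19:23134177-23134192 (plus strand): AGGGCAgggcAGGGCA
Klf10, 22519 bp downstream, chr15:38278176-38278191 (plus strand): AGGCCAagggAGGTCA
Klf13, 9641 bp downstream, chr7:63929278-63929293 (plus strand): AGGTCAccttGGGACA
Klf13, 26799 bp downstream, chr7:63912104-63912119 (plus strand): AGGTCAgctgAGGACA
Klf10, 46542 bp downstream, chr15:38254180-38254195 (minus strand): AGGTCAggagAGGTCA
Klf15, 50054 bp downstream, chr6:90512616-90512631 (minus strand): AGGTCAtctgAGCACA

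Both TRBS of Klf9 within 30 kb held a DR4 far from the summit. In the TRBS 6281 bp upstream, the element was centred 760.5 bp from the summit, with the mismatches T4G and T14G, counted from 1 at the 5′ end of the element with the consensus base first. A further copy with the same letters overlapped it, starting at 23134172. In the TRBS 9011 bp upstream, the element was 515.5 bp from the summit and had the mismatches T14A and C15A. Within 100 bp of the summits, the best matches had 3 and 4 mismatches respectively, and 62.4% of all TRBS had a match of at most 3 mismatches there. Both TRBS were among the widest of the list, and a wider peak holds more bases in which a match can occur. How far width accounts for these matches was not tested.

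The elements of Klf10 and Klf13 were nearly centred on the summits. The Klf10 TRBS at 22519 bp had its DR4, with the mismatch T4C, 3.5 bp from the summit. The Klf13 TRBS at 26799 bp had its DR4, with the mismatch T14A, 4.5 bp from the summit. A match with at most 1 mismatch within 100 bp of the summit was present in 6.29% of all TRBS. The Klf13 TRBS at 9641 bp had a DR4 with A11G and T14A at 11.5 bp. Of the 19 TRBS within 100 kb, the only one with a perfect DR4 lay 46542 bp downstream of Klf10, with the element 23.5 bp from the summit, and 0.862% of all TRBS held a perfect element. The TRBS 50054 bp downstream of Klf15, in Aldh1l1, had a DR4 with G13C and T14A at 6.5 bp.

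**Figure D4:**
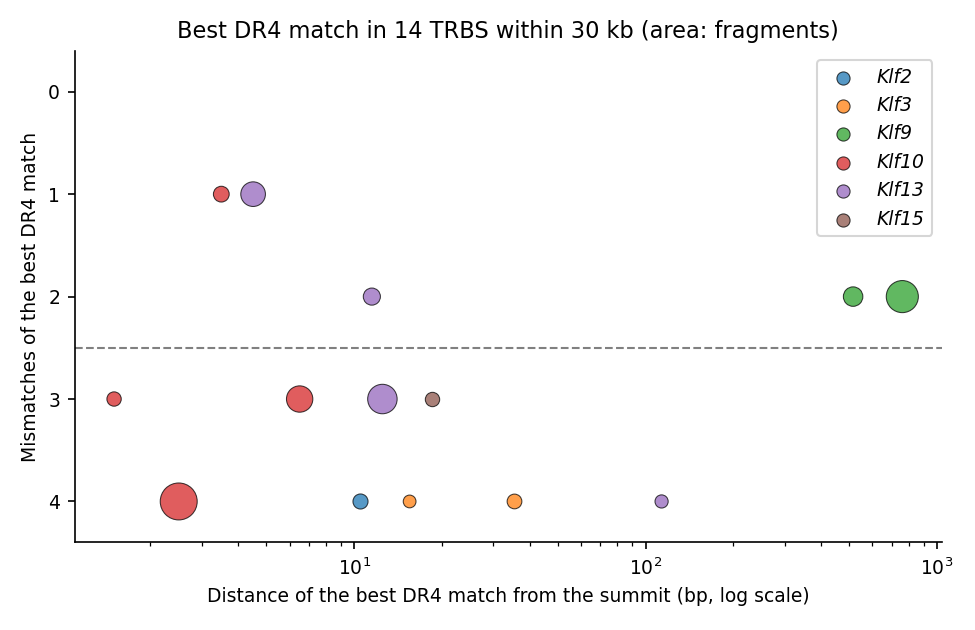
Best DR4 match in each of the 14 TRBS within 30 kb, as mismatches over 12 half-site bases (y axis, best at the top) against the distance of its centre from the summit (x axis, bp, log scale). Circle area gives the summit fragments, colours give the gene, and the dashed line is the limit of 2 mismatches. The 2 Klf9 circles lie at 515.5 and 760.5 bp, and the strongest TRBS of Klf10 and Klf13 fall below the line with 4 and 3 mismatches.

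The DR4 was then set beside the strength of the TRBS. Of the 6 TRBS within 30 kb above the upper quartile of fragments, 1 had a DR4 within 100 bp of the summit, namely the Klf13 TRBS at 26799 bp, beside 27.5% of all TRBS. In the whole peak, 3 of the 6 had one, these being that TRBS and both of Klf9, beside 32.0% of all TRBS. Beyond 30 kb, the Klf10 TRBS at 46542 bp, with 31 fragments, had the perfect DR4 described above. In the strongest TRBS of the family, at 1196 bp of Klf10, the best match in the whole peak had 4 mismatches, and 97.4% of all TRBS had a match at least as good. The strongest TRBS of Klf13 had a best match with 3 mismatches, as did the Klf10 TRBS at 20229 bp. Each of the 3 TRBS of Klf2 and Klf3 had a best match with 4 mismatches. This is a description of 14 sites, with no test.

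The TRBS above the upper quartile of fragments ranged widely in base composition. GC content was 75.3% at 1196 bp of Klf10, 71.3% at 1389 bp of Klf13 and 59.5% at the TRBS 6281 bp upstream of Klf9, against a median of 51.1% for the list. The other TRBS above the upper quartile were nearer to that median, with 48.7% at 20229 bp of Klf10, 52.9% at 26799 bp of Klf13 and 47.3% at the TRBS 9011 bp upstream of Klf9. The promoter TRBS of Klf3 had 75.2%. The 3 TRBS with a DR4 within 100 bp of the summit had 46.5% to 52.9%. Of the whole list, 131 TRBS had a GC content of at least 70%, a limit chosen after the values were seen, with a median of 15 fragments. Among these 131, the Klf10 TRBS had the most fragments with 122, the next had 101, and the Klf13 TRBS ranked 4. A DR4 was present in 9 of the 131 (6.87%), against 32.6% of TRBS with a lower GC content. Repeat sequence made up 0 to 27.0% of the 14 TRBS, with the highest share at Klf2.

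**Figure D5:**
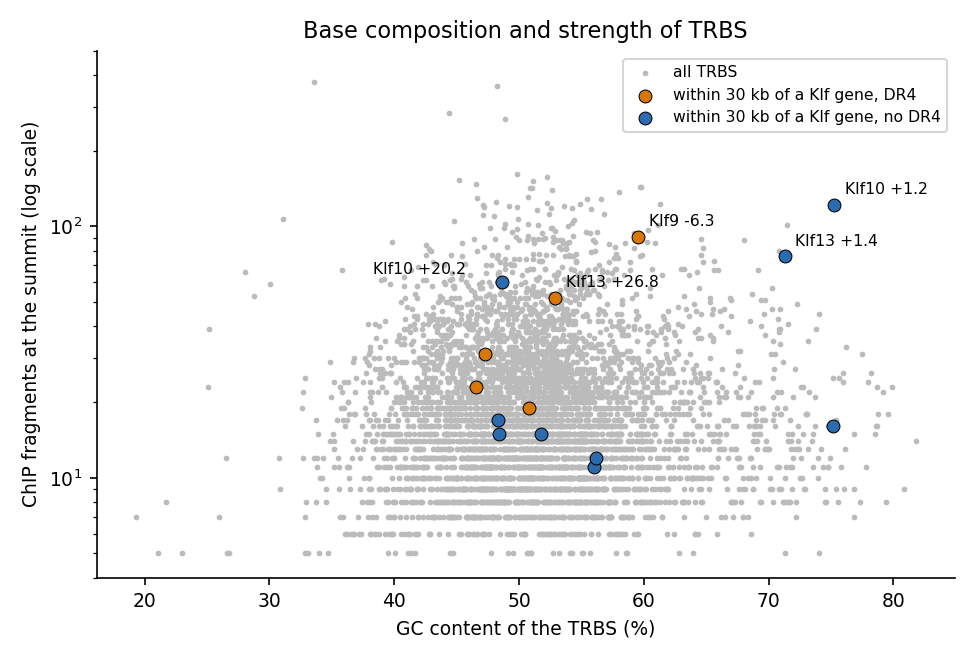
GC content (x axis, %) and ChIP fragments at the summit (y axis, log scale, shown up to 500) of all TRBS (grey) and of the 14 TRBS within 30 kb of a Krüppel-like factor gene, with (orange) or without (blue) a DR4 of at most 2 mismatches in the peak. The 4 TRBS of Klf10 and Klf13 over 50 fragments and the strongest of Klf9 are named, and the Klf10 TRBS at 1196 bp is the highest point among those with at least 70% GC.

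Motifs of other factors were searched on both strands. A glucocorticoid response element, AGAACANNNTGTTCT with at most 2 mismatches over 12 bases, was present in 2 of the 14 TRBS and in 4.33% of the list. Within 100 bp of the summit it was present in 1 of the 14, against 2.17% of the list. The 2 matches are shown, with the fixed positions in capitals, because Klf9 is known to respond to both hormones.
Klf9, chr19:23135092-23135106 (plus strand): AGGACAaacTGTTCC
Klf13, chr7:63912117-63912131 (plus strand): ACAACAgttTGTTCT
The match of Klf9 lay in its strongest TRBS, 154 bp from the summit, with 2 mismatches. The match of Klf13 lay in the TRBS at 26799 bp, 8 bp from the summit, with 1 mismatch, and its first bases overlapped the end of the DR4 printed above. Beyond 30 kb, the TRBS 84230 bp upstream of Klf9 held matches with 2 mismatches, at 23 and 90 bp from its summit, and the TRBS 41858 bp downstream of Klf13 held a match with 1 mismatch, at 39 bp.

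The GC box GGGGCGGGG was present in 4 of the 14 TRBS, namely the strongest of Klf3, Klf9, Klf10 and Klf13, and in 5.46% of the list. In none of the 14 did it lie within 100 bp of the summit, against 2.90% of the list. These 4 TRBS had a GC content of 59.5% to 75.3%, against a list median of 51.1%. In the TRBS of Klf9, which was 2739 bp wide, the box lay 1388 bp from the summit. How far base composition and width account for these matches was not tested. The box CCACACCC, bound by several Krüppel-like factors, was in 0 of the 14 and in 4.74% of the list. The EBF motif TCCCNNGGGA was in 3 of the 14, at Klf3, Klf9 and Klf10, and in 4.54% of the list. Within 100 bp of the summit it was in 2 of the 14, against 2.62% of the list. The C/EBP motif TTGCGCAA with at most 1 mismatch was in the TRBS of Klf2 and in 12.0% of the list. Near the summit it was in 1 of the 14 and in 6.79% of the list. A DR1, AGGTCANAGGTCA with at most 2 mismatches, was in the wide TRBS of Klf9 and in 14.9% of the list, and it shared bases with the DR4 copies there. It lay 774 bp from the summit. Within 100 bp a DR1 was in 0 of the 14, against 9.03% of the list.

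DR4 sequences were also present around members without a detected TRBS. In the 60 kb centred on each TSS, the 10 genes had 3 to 12 DR4 with at most 2 mismatches, and the median of all protein-coding genes was 7. Klf4 had 3, Klf5 had 5, Klf11 had 8 and Klf6 had 9, and none of these 25 lay in a TRBS. Klf15 had the most with 12, and none of them was in a TRBS within this distance. At Klf9, 3 of 11 were in a TRBS, at Klf13 2 of 5, and at Klf10 1 of 7. The 3 at Klf9 include the overlapping copies described above and lay 515.5 to 765.5 bp from a summit. Across the genome, 0.711% of the 290078 elements with at most 2 mismatches lay in a TRBS. With at most 1 mismatch, 1 of 1 at Klf10 and 1 of 2 at Klf13 lay in a TRBS, and none of the 2 at Klf11, the 3 at Klf15 or the 1 each at Klf3 and Klf9 did. The share of such elements in a TRBS was 1.91% across the genome. Both genome shares include sequence with no TRBS nearby. They are therefore not a like background for windows around genes that have a TRBS, and no test was made.

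The closest summit to Klf11 (chromosome 12: 24651274 to 24662789, plus strand) had 17 fragments and lay 215687 bp downstream. For Klf6 (chromosome 13: 5861482 to 5870394, plus strand) it had 25 fragments and lay 294313 bp upstream. For Klf5 (chromosome 14: 99298691 to 99315036, plus strand) and Klf4 (chromosome 4: 55527143 to 55532466, minus strand) it lay 987395 bp downstream and 1074587 bp upstream. A missing peak says only that no TRBS was detected at this depth, since the list median was 17 fragments and no read totals were used here.

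The 16 other genes of the family and of the related SP factors were Klf1, Klf7, Klf8, Klf12, Klf14, Klf16, Klf17 and Sp1 to Sp9. A TRBS within 30 kb was found at 2 of the 16, again beside 16.7% of all protein-coding genes. That of Klf12, 1407 bp upstream of its TSS, had 9 fragments (4.12 to 17.1), and that of Sp4, 1224 bp upstream, had 14 (7.65 to 23.5). Within 100 kb, 6 of the 16 had a TRBS, with at most 27 fragments, beside 38.3% of all protein-coding genes. None of the 16 had more than 1 within 30 kb.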

How the data were processed

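Chromatin of brown adipose tissue gave 1 ChIP and 1 input library. Per the labels and the submitters' processing notes, the authors aligned paired-end reads to GRCm38 (mm10) with Bowtie2 2.3.2.2 and called peaks with MACS2 2.1.1.20160309.6 in the ChIP against the input library, without pooling. The study's methods name other versions of both tools. The deposited score is 10 times the −log10 of the q-value, rounded down. The deposited fold is the ratio of ChIP pileup to local input background at the summit, with 1 added to each. A Poisson test of that pileup gave the deposited −log10 p-value. The authors' values were used as a description. The list was not filtered at a score of 60.

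Summit fragments were recovered as the whole number that fits both fold and −log10 p within 0.0005, which was reached for 5090 of 5107 TRBS (99.7%) and for every site described here. Poisson and binomial intervals are exact, at 95%, and cover counting error only, because there was no replicate library. PCR copies were not marked by molecular identifiers, and their effect on the intervals was not tested. The median TRBS had 17 fragments. Read totals were not used. Peak starts were counted from 0 in the list and are printed from 1.

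Genes were taken from GENCODE M21 (GRCm38), with the 5′ end of the gene as TSS and without mitochondrial genes. The RefSeq starts of 9 of the 10 members lay within 133 bp of these, and that of Klf15 differed by 1533 bp. A promoter reached from 1000 bp upstream to 100 bp downstream. Sequence came from RefSeq GRCm38.p6, and the summit sequences of some TRBS are not reported here. Python 3.11.15, numpy 2.4.6, scipy 1.17.1, pysam 0.24.0 and samtools 1.23.1 were used, and the scripts were tested on simulated data. The text names every member, each gene whose TSS is nearest to one of their TRBS within 30 kb, and the other KLF and SP genes with such a TRBS. Odf1, nearest to a TRBS beyond 30 kb, and the split by GC content were added after the values were seen. The members and lists were chosen with earlier results of these data known.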

Additional observations from a re-analysis of the deposited data

How the results depend on the processing

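No paired analysis was possible because each group held 1 library. Alternatives were a score of at least 60 or 100, the nearest transcript start, the nearest edge of the peak, merging of peaks closer than 1000 bp, limits of 10 and 50 kb, and other DR4 searches. The RefSeq gene start was added after the data were seen. Of 64 recomputed values, 56 stayed within 1.5 times the main count, or at the same rank, and 8 moved. A limit of 10 kb left 7 TRBS, of which 3 held a DR4, and put Klf9 at rank 1 by summed fragments, level with Klf10, in place of rank 3. By its strongest TRBS alone, Klf9 ranked 2. The number of TRBS with a DR4 was 2 with at most 1 mismatch, 9 with at most 3, and 3 within 100 bp of the summit. With a score of at least 100, 0 of the other KLF and SP genes had a TRBS. The number of bound members was 6 of 10 in all of these settings except 4 with 10 kb, 5 with a score of at least 100, which removed Klf3, and 5 with the RefSeq start, which removed Klf15. With 1 library, the depth limits what can be said of genes without a TRBS.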
